A study of Mus musculus with 6 samples.

Results

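The genes described here are 10 transcripts made inside the mitochondrion of BV2 cells, an immortalised mouse microglial line. They were taken by name from the 40202 genes listed in the deposited table of normalised reads: the messengers ND1, ND2, ND4, ND5, COX1, CYTB, ATP6 and ATP8, and the ribosomal RNAs mt-Rnr1 and mt-Rnr2. All 10 names were found, and all 10 were tested, having averaged 10 or more normalised reads per library. Total RNA had been sequenced from 6 samples of C57BL/6 background. A control group of 3 was untreated, and a group of 3 (FL-ApoE4) was incubated with human full-length apolipoprotein E4, a carrier of lipids (dose 25 µg/ml, duration 5 h). The labels state neither whether controls received the protein's vehicle nor whether replicates were separate cultures, so the p-values rest on a spread between samples that may be technical in origin. All samples are of 1 cell line, grown in medium with fetal bovine serum. In total RNA of a culture, fewer cells with a given RNA and less of that RNA per cell cannot be told apart.

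The mitochondrial genome is a small circle whose strands are copied into long transcripts that carry many genes. These are cut apart, largely at the transfer RNAs that lie between the other genes, into ribosomal RNAs and messengers. The messengers encode core subunits of the respiratory chain and of ATP synthase, and mt-Rnr1 and mt-Rnr2 are the RNAs of the small and large subunit of the mitochondrial ribosome that translates them. Every other protein needed to transcribe, cut, stabilise and translate these RNAs is encoded in the nucleus and imported. Most mitochondrial messengers carry a short poly(A) tail. The nuclear genome also holds copies of mitochondrial DNA.

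Libraries held 45700128 to 54965393 reads assigned to genes, so counting error was small for the abundant members. Control replicate 1 stood apart from the other controls across genes, with a chi-square per gene of 64.1 and 71.9 against 4.85 between control replicates 2 and 3. Among treated libraries, FL-ApoE4 replicate 1 was likewise apart from the others, at 21.4 and 19.9 against 4.39 between those. Of 12 microglia and macrophage markers, 11 had a mean of at least 10; their summed level was 173167 to 179233 normalised reads in controls and 194859 to 203648 with FL-ApoE4, and P2ry12, a marker of resting microglia, was listed at 0 in all libraries. Fibroblast markers summed to at most 8.69 and neuron markers to at most 87.6. Astrocyte markers reached 90.1, with Aqp4 at 0, and oligodendrocyte markers 1151 to 1297. Their part in the results below was not tested.

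Sequence that 2 places share bears on how a read can be assigned, so the members were first compared with each other and with nuclear transcripts. Sequences and lengths are those of GENCODE M21 (GRCm38), and coordinates are not given because the deposited reads were assigned on another build. ATP8 and ATP6 overlap by 43 bases, which are 21.1% of ATP8 and 6.31% of ATP6. ND4L, a messenger that is listed in the table but is not one of the 10, runs into ND4 by 7 bases. Both overlaps are shown because reads there belong to 2 genes at once; capitals mark the shared bases, which end the first gene of each pair and begin the second.
ATP8 end: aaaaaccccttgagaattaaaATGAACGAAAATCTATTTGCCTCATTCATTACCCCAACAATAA
ATP6 start: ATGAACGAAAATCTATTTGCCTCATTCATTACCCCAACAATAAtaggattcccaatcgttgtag
ND4L end: ccaaaatctcaacctactacaATGCTAA
ND4 start: ATGCTAAaaattattcttccctcactaa

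All 75-base windows of each mitochondrial gene were then searched, on both strands and without mismatch, in the nuclear transcripts of the same annotation. ATP6 shared 99.5% of its windows, ND4 61.5%, COX1 39.8%, ND2 5.71% and ND5 1.66%. ND1, CYTB, ATP8, mt-Rnr1 and mt-Rnr2 shared 0%. With windows of 50 bases, mt-Rnr2 shared 1.04% and ATP8 still 0%. The longest copies lie on chromosome 1, and COX1 also shared windows with Gm13340 on chromosome 2. The nuclear transcript Gm10925 matched ATP6 over 678 of 678 aligned bases, and ATP6 is 681 bases long. Gm28439 matched the first 876 of the 1378 bases of ND4, with 0 mismatches. Gm29216 matched bases 1054 to 1545 of COX1 at 486 of 492 bases, with all 6 mismatches near its start (T1056A, C1057T, A1059G, A1060G, C1062A and A1066T, counted from the first base of COX1, mitochondrial base first). The ends of these matches in ND4 and COX1 are printed because they mark where the identity with that copy stops; COX1 windows before this point can still be shared with Gm13340. Capitals mark bases 847 to 876 of ND4, which are the last to be identical in Gm28439, and bases 1067 to 1096 of COX1, which follow the last mismatch with Gm29216.
ND4 junction: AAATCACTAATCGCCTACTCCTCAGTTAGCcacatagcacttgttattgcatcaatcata
COX1 junction: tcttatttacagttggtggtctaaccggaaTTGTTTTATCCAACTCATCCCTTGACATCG

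None of these nuclear transcripts is listed in the deposited table under its GENCODE M21 name. That table was made on another build, and entries under other names were not looked for. How the counting treated reads with more than 1 match is not given in the sources used here. For ATP8 the search of transcripts found nothing, although all of ATP8 but its overlap with ATP6 lies in the 230 bases between COX2 and ATP6, and the nuclear copies of those neighbours, Gm28661 and Gm10925, lie 233 bases apart. Nuclear sequence outside annotated transcripts was not searched.

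Levels fell into 2 ranges. A group of 6 messengers averaged 67065 to 246333 normalised reads, or 48668 to 173076 per kb of gene, while ATP6 and ATP8, both subunits of ATP synthase, averaged 144 and 23.9, or 211 and 117 per kb. Per kb, CYTB (cytochrome b of complex III) was first at 173076 and COX1 (the catalytic core of complex IV) second at 159439, and their ranges over the 6 libraries overlapped. Then came the complex I subunits ND1 at 139988, ND2 at 79711, ND5 at 65551 and ND4 at 48668, each apart over the libraries from its neighbours. The ribosomal RNAs followed, mt-Rnr2 at 38326 and mt-Rnr1 at 18470. Library preparation may have removed ribosomal RNA or favoured RNA with a poly(A) tail, which is unknown here. The place of the ribosomal RNAs below these messengers is therefore an order of counted reads and does not rank abundance in the cells. ATP6 at 211 and ATP8 at 117 were last, and their ranges overlapped. ND1 was thus 662-fold above ATP6 per kb.

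The low values were not limited to ATP synthase. Among mitochondrial messengers outside the 10, COX2, COX3, ND3 and ND4L averaged 121, 105, 87.4 and 73.9 normalised reads, and each shared 97.8% to 99.9% of its windows with a nuclear transcript. COX2 was 903-fold below COX1 per kb, although both encode complex IV subunits, and ND4L was 196-fold below ND4, into which it runs. ND6, the messenger encoded on the opposite strand, shared 0% and averaged 33268. The 6 genes of low value therefore comprised 5 with nearly all windows shared and ATP8 with none found, and every gene sharing at most 61.5% other than ATP8 was high. Whether shared sequence set these values was not tested. On a second length scale, divided by the number of 75-base windows that were not shared, COX1 was first at 278342 normalised reads per 1000 windows, followed by CYTB at 185046, ND1 at 151720, ND4 at 133595, ND2 at 91024 and ND5 at 69475. ND4 stood above ND2 and ND5 on this scale and below them per kb, and COX1 stood above CYTB. The scale treats all reads of a gene as lying in its unshared windows, which is not known here. It also depends on window length: COX1 had 731, 885 and 1000 unshared windows at 50, 75 and 100 bases.

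**Figure D1:**
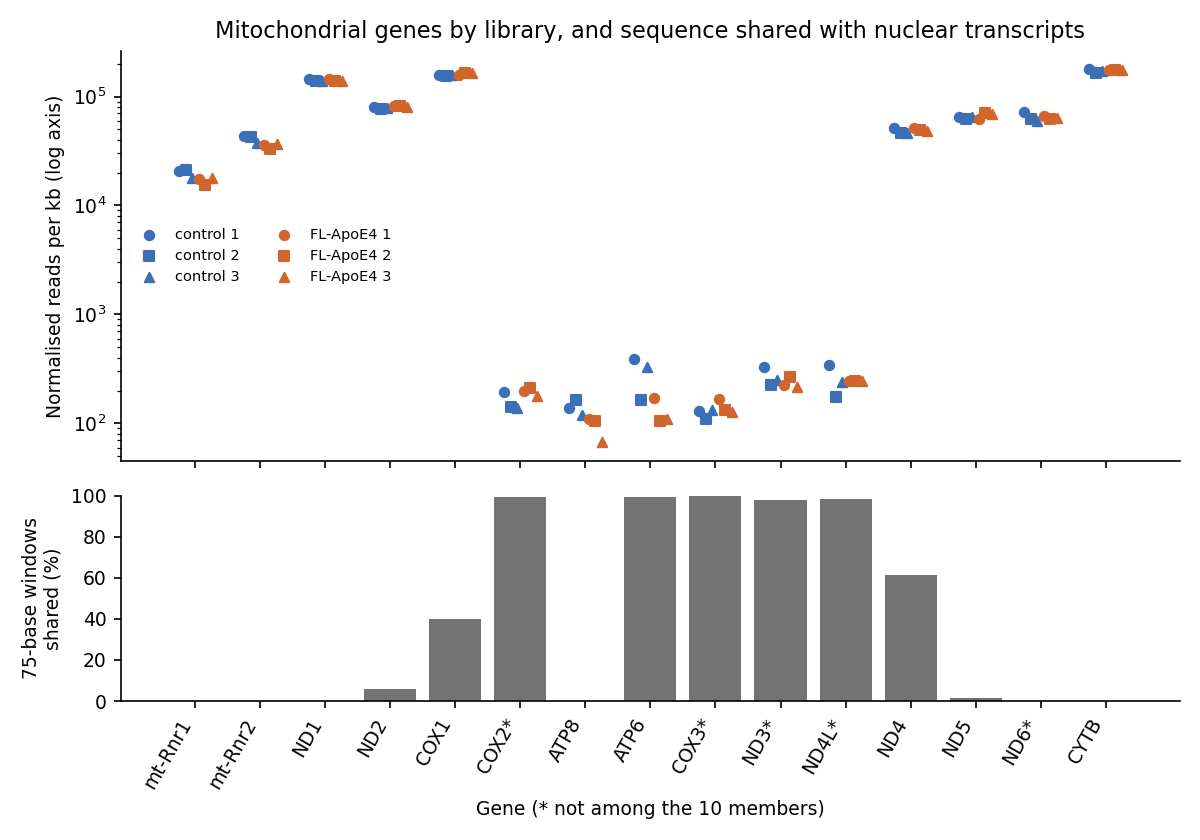
Upper panel: normalised reads per kb (log axis) of each mitochondrial messenger and ribosomal RNA in the 6 libraries, control in blue and FL-ApoE4 in orange. Lower panel: percent of its 75-base windows found in a nuclear transcript. COX2, COX3, ND3, ND4L, ATP6 and ATP8 lie at most at 391 per kb in every library; ATP8 alone among them has no shared window.

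With FL-ApoE4 the 6 abundant messengers were close to their control levels. Their differences lay between 0.01 and 0.07 on the log2(value + 1) scale, or 0.790% to 4.91%, and the widest bounds of their 95% intervals were -0.10 and 0.20. None passed the test, which was limma with Benjamini-Hochberg adjustment over 14079 genes at 0.05 and called 0 of the 10 members and 0 of all genes (0%; 1850 at an unadjusted p under 0.05). The edgeR test on recovered reads called 0 as well (1844), and DESeq2 367. Over the 8 messengers 6 differences were positive with a median of 0.04; over all genes tested 7085 were positive with a median of 0.00.

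COX1 was the messenger whose groups did not overlap upwards. In replicate order, controls held 243188, 236945 and 241099 normalised reads and treated libraries 245647, 255628 and 255492; all values below follow that order. FL-ApoE4 replicate 1 lay nearer to control replicate 1 than to the other treated libraries. The difference was 0.07 ± 0.05 (SE; limma adjusted p = 0.582), and under quantile normalisation its sign turned, to -0.02. Of all genes tested, 11.1% were higher with FL-ApoE4 without overlap, and 1 of 8 messengers is read against that.

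The other abundant messengers overlapped between groups. CYTB was at 202917, 188748 and 194833 in controls and at 200824, 201774 and 198898 with FL-ApoE4 (0.04 ± 0.05, limma adjusted p = 0.818). Its highest and lowest library were both controls. ND1, which sits where quinone is reduced in complex I, was at 137146, 131578 and 131607 and at 137838, 133230 and 132412 (0.01 ± 0.05, limma adjusted p = 0.952). In both groups replicate 1 was the highest for ND1.

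ND2, ND4 and ND5 encode the membrane subunits of complex I that are related to ion antiporters. ND2 was at 83844, 79433 and 81204 in controls and at 84363, 84152 and 83446 with FL-ApoE4 (0.04 ± 0.04, limma adjusted p = 0.745). ND4 was at 70753, 63238 and 64246 and at 70361, 67754 and 66037 (0.04 ± 0.06, limma adjusted p = 0.820). The treated libraries of both genes lay within or just above the span of the controls. ND5, the longest of them, was at 117544, 114428 and 119235 and at 112293, 127549 and 126345 (0.06 ± 0.06, limma adjusted p = 0.760). Here FL-ApoE4 replicate 1 was the lowest library of all and replicates 2 and 3 were the highest.

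The spread among these messengers was led by particular libraries. Relative to the mean of the other treated libraries, FL-ApoE4 replicate 1 was at -11.5% for ND5 (1824 bases) and -3.88% for COX1 (1545 bases), but at 3.78% for ND1 (957 bases) and 5.18% for ND4 (1378 bases). Control replicate 1 was at 11.0% for ND4, 5.80% for CYTB and 0.609% for ND5 relative to the other controls. These deviations were many times counting error: the SD of ND5 over treated libraries was 24.3 times the square-root counting error and that of ND4 over controls 15.9 times.

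**Figure D2:**
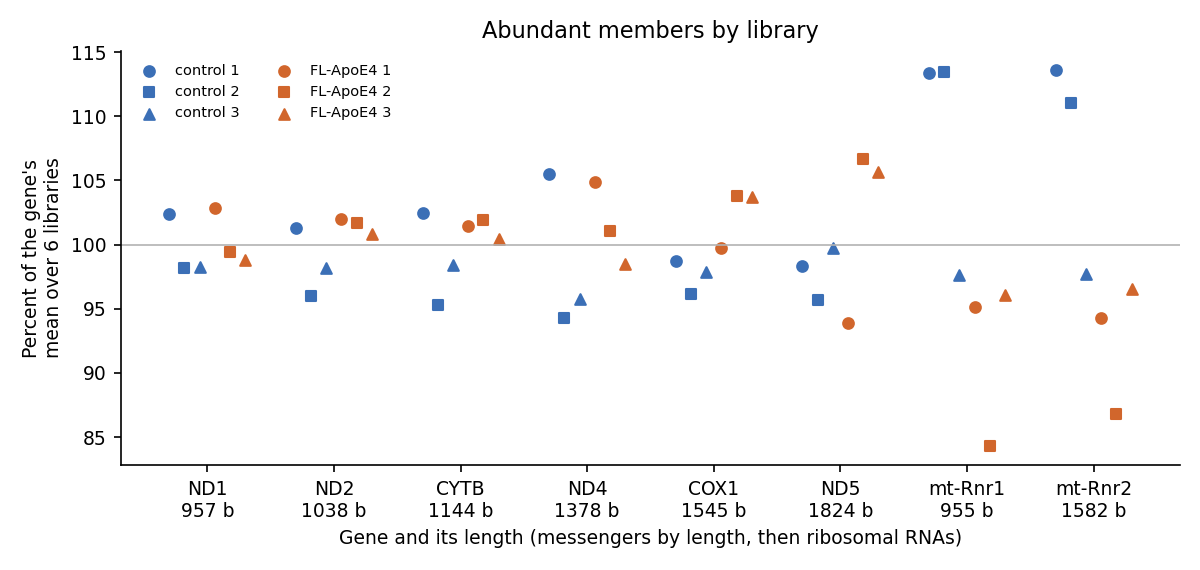
Each abundant member in each library, as a percent of that gene's mean over the 6 libraries, with messengers ordered by length (given in bases, b) and ribosomal RNAs at the right. Messengers stay between 93.9% and 106.7%; the ribosomal RNAs span 84.3% to 113.6%, with control replicates 1 and 2 at the top and FL-ApoE4 replicate 2 at the bottom.

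ATP6 and ATP8 were lower on average with FL-ApoE4, on few reads. ATP6 was at 266, 113 and 222 normalised reads in controls, from 245, 119 and 236 reads, and at 116, 72.3 and 74.4 with FL-ApoE4, from 104, 78 and 76 reads. Control replicate 2 lay below FL-ApoE4 replicate 1, so the groups overlapped. Group means were 200 ± 78.9 and 87.6 ± 24.7 (SD, n = 3 each), a difference of -1.13 ± 0.33 (SE; limma unadjusted p = 0.0106, adjusted p = 0.230), and edgeR's quasi-likelihood test gave an adjusted p of 0.215. The authors' deposited table gives ATP6 a log2 fold change of -1.20 ± 0.32 (SE) with an adjusted p of 0.0130. The same table, the authors' deposited table, calls 172 of 12897 genes lower (1.33%), ATP6 alone among the 10 members. DESeq2 on the recovered reads gave the same adjusted p, 0.0130. The library spread of ATP6 was 5.57 times its counting error in controls and 2.61 times with FL-ApoE4. Nearly every window of ATP6 is also in Gm10925, and how reads with more than 1 match were counted is not given. Whether the counted reads came from the mitochondrial or the nuclear copy was therefore not determined.

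ATP8 was at 28.2, 33.2 and 24.5 normalised reads in controls and at 22.3, 21.3 and 13.7 with FL-ApoE4, from 14 to 35 reads a library. All treated libraries lay below all controls; 10.9% of all genes tested were lower without overlap. The difference was -0.58 ± 0.26 (SE; limma adjusted p = 0.407), and the spread within groups, 0.820 and 1.07 times counting error, was about what counting alone gives. Differences of the other genes of low value were smaller and of either sign. COX2 was at 132, 96.7 and 95.2 and at 135, 144 and 121 (0.31 ± 0.16, limma adjusted p = 0.465), and COX3 differed by 0.20 ± 0.15 (limma adjusted p = 0.647). ND3 differed by -0.18 ± 0.18 (limma adjusted p = 0.749). ND4L, at 0.01 ± 0.24 (limma adjusted p = 0.990), changed sign under quantile normalisation, edgeR and DESeq2. ATP6 was thus the low gene with the greatest difference and the only one of them past a threshold in any of the count tests run.

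**Figure D3:**
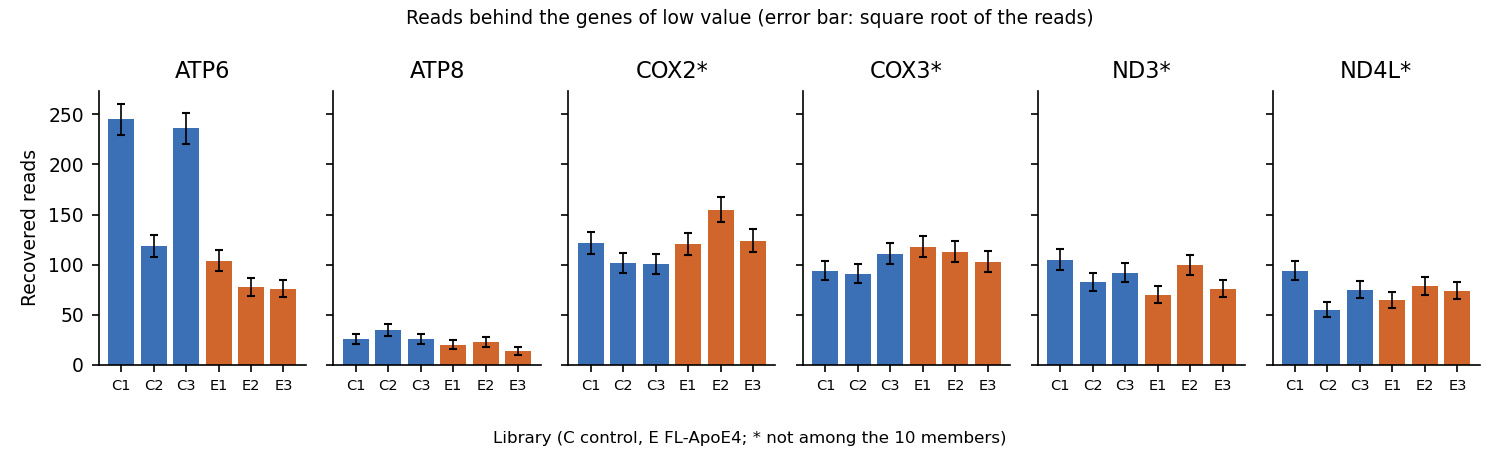
Reads recovered for the 6 mitochondrial messengers of low value in each library (C, control; E, FL-ApoE4), with the square root of the count as error bar. ATP6 stands at 245 and 236 reads in control replicates 1 and 3 and at 119 in control replicate 2, against 76 to 104 with FL-ApoE4; ATP8 holds 14 to 35 reads.

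Both ribosomal RNAs were lower in every treated library than in every control. The RNA of the large subunit, mt-Rnr2, was at 68905, 67308 and 59265 normalised reads in controls and at 57154, 52611 and 58545 with FL-ApoE4. Control replicate 3 lay just above FL-ApoE4 replicates 1 and 3, and FL-ApoE4 replicate 2 was the lowest. Means were 65159 ± 5166 and 56103 ± 3104 (SD, n = 3 each), and the difference was -0.21 ± 0.07 (SE), or -13.8%, with a 95% interval from -0.38 to -0.05 before adjustment. It missed the threshold (limma unadjusted p = 0.0197, adjusted p = 0.276).

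The RNA of the small subunit, mt-Rnr1, was at 20000.2, 20019 and 17222 in controls and at 16786, 14862 and 16941 with FL-ApoE4. As for mt-Rnr2, control replicate 3 lay nearest to the treated libraries and FL-ApoE4 replicate 2 was the lowest. Its difference was -0.24 ± 0.08 (SE), or -15.1%, and it too missed the threshold (limma unadjusted p = 0.0199, adjusted p = 0.278). The authors' deposited table gives adjusted p values of 0.180 for mt-Rnr1 and 0.185 for mt-Rnr2. The median over both was -0.22, with 2 of 2 lower without overlap where 10.9% of all genes tested were. The 2 RNAs come from the same precursor and are not independent of each other: mt-Rnr2 over mt-Rnr1 per kb was 2.03 to 2.14 in all 6 libraries.

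**Figure D4:**
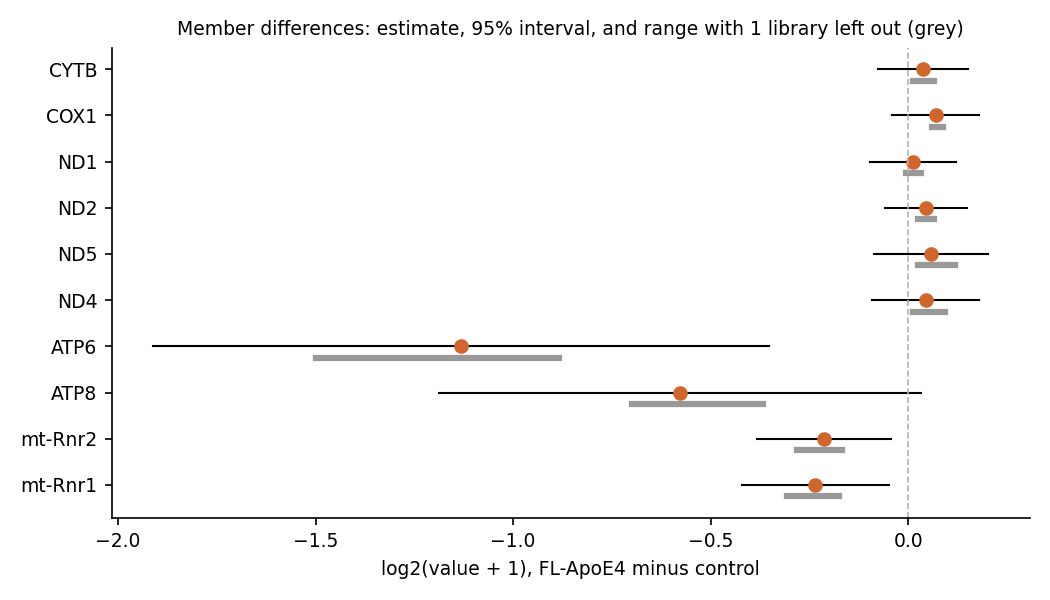
Difference of each member, FL-ApoE4 minus control, on the log2(value + 1) scale: point, limma estimate; black line, 95% interval before adjustment; grey bar, range of estimates with 1 library left out. The 6 abundant messengers lie at 0.01 to 0.07 (ND1 and COX1 turn negative under quantile normalisation), mt-Rnr2 and mt-Rnr1 at -0.21 and -0.24, and ATP8 and ATP6 at -0.58 and -1.13 with wider intervals.

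Set against each other within a library, the ribosomal share was lower and the messenger share higher with FL-ApoE4. The 8 messengers took 1.62%, 1.61% and 1.63% of reads in controls and 1.67%, 1.71% and 1.69% with FL-ApoE4. The 2 ribosomal RNAs took 0.168%, 0.173% and 0.150% and then 0.145%, 0.132% and 0.148%. Neither share overlapped between the groups, with means of 1.62 ± 0.0134% and 1.69 ± 0.0190% for messengers and 0.164 ± 0.0118% and 0.142 ± 0.00835% for ribosomal RNAs (SD, n = 3 each). These are shares of all recovered reads. On the normalised scale used above, the messenger sum overlapped between the groups. Control replicate 1 (787908 messenger reads, each worth 1.086 normalised reads) lay above FL-ApoE4 replicate 1 (763294 reads, each worth 1.116).

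The quotient of ribosomal over messenger reads does not depend on how a library is scaled. Controls held 10.4, 10.7 and 9.19 ribosomal reads per 100 messenger reads, and treated libraries 8.68, 7.75 and 8.75. Control replicate 3 was again the control nearest to the treated libraries. Means were 10.1 ± 0.807 and 8.40 ± 0.557, a difference of -1.70 or -16.9%, larger than either SD. These sums over chosen genes are given without a test. Leaving out any 1 library gave differences of -2.16 to -1.38. The messenger side of the quotient was nearly all COX1, CYTB, ND1, ND5, ND2 and ND4. Without ATP6, ATP8 and COX1 the messenger sum is smaller, so both measures have another base. The quotient then averaged 14.2 in controls and 11.9 with FL-ApoE4, a difference of -2.32. The messenger share averaged 1.15% and 1.20%, a gap of 0.0429 percentage points instead of 0.0708.

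**Figure D5:**
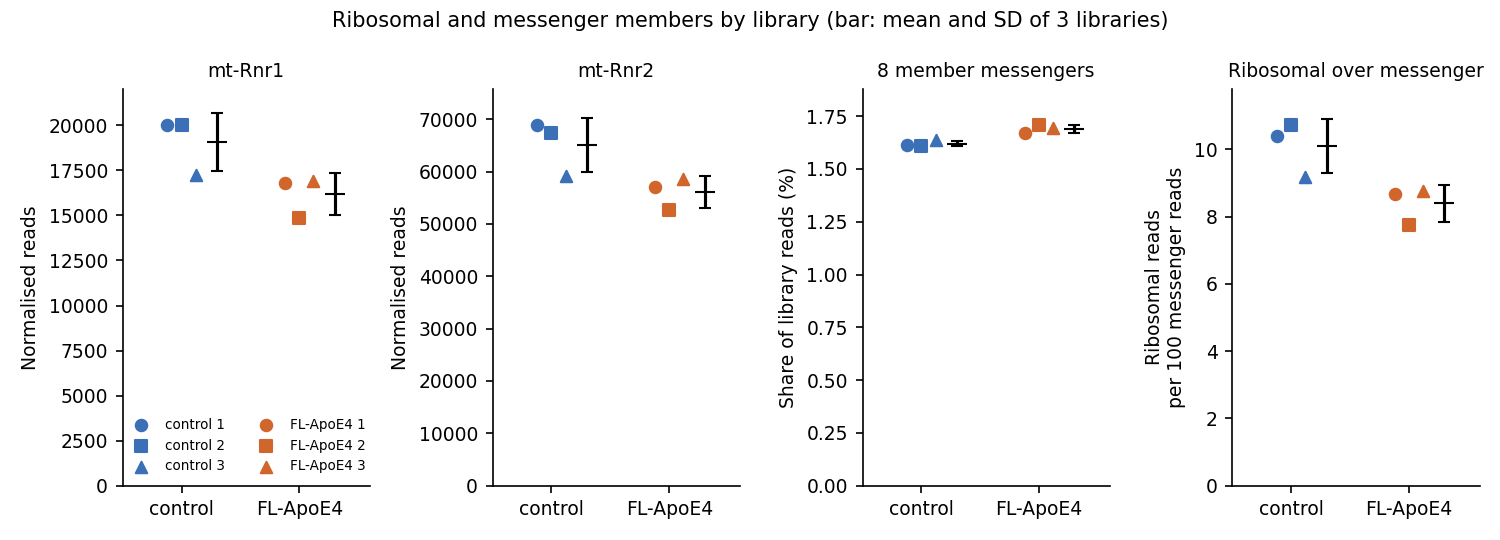
Normalised reads of mt-Rnr1 and mt-Rnr2, the share of library reads on the 8 messengers, and ribosomal reads per 100 messenger reads, each library as a point and the mean ± SD of 3 libraries as a bar, all axes from 0. In every panel the groups are apart, with control replicate 3 closest to the treated libraries for both ribosomal RNAs and for the quotient. The messenger panel shows a share of recovered reads. On the normalised scale of the ribosomal RNA panels, the messenger sum overlaps between the groups.

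The sources used here do not say whether ribosomal RNA was depleted or poly(A) RNA selected before the libraries were made. RNAs that lack a poly(A) tail were therefore looked up beside the ribosomal result, a choice made after values were seen. Rpph1, the RNA of ribonuclease P, was at 405, 457 and 506 normalised reads in controls and at 379, 302 and 323 with FL-ApoE4 (-0.45 ± 0.12, limma adjusted p = 0.210), without overlap. Terc, the telomerase RNA, was at 18.5, 25.6 and 16.0 and at 14.5, 13.0 and 7.83 (-0.73 ± 0.32, limma adjusted p = 0.387), also without overlap. Rn7sk, at 63.0, 61.7 and 50.9 and at 45.7, 28.7 and 52.9, overlapped between the groups (-0.49 ± 0.25, limma adjusted p = 0.454). Rmrp, at 15.2, 17.1 and 14.1 and at 20.1, 12.1 and 14.7, was level (-0.01 ± 0.27, limma adjusted p = 0.989). Terc, Rn7sk and Rmrp rest on few reads. Histone genes were picked by symbol, as a class whose replication-dependent messengers typically end without poly(A). Whether each transcript lacked poly(A) in these cells was not examined. Of 24 such genes tested, 20 had negative differences, with a median of -0.26, where 6994 of 14079 genes tested were negative. Without overlap, 3 were lower and 1 higher, where 10.9% and 11.1% of all genes tested were, and 3 of 24 is close to that background. The part of library preparation in the ribosomal difference was not tested.

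The remaining mitochondrial genes gave little beyond this. ND6 was at 37457, 32230 and 30688 in controls and at 34308, 32130 and 32794 with FL-ApoE4 (-0.01 ± 0.08, limma adjusted p = 0.972, with the sign turned under quantile normalisation and equal totals). Of 22 mitochondrial transfer RNA genes listed, 16 were at 0 in all libraries and 2 passed the filter. TrnC lay at 740 to 878 normalised reads (-0.04 ± 0.08, limma adjusted p = 0.908) and TrnP at 70.5 to 98.8 (-0.14, limma adjusted p = 0.767). The counting's strand setting is not given in the sources used here, so reads of a gene and of the strand opposite to it may be mixed.

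No nuclear gene of the lists for making and maintaining mitochondrial RNA passed the test. Of 18 transcription and DNA maintenance genes, 7 differences were positive and 11 negative, with a median of -0.05, and 0 passed the test. Tfam, which packages mitochondrial DNA and starts its transcription, was at 3572, 3489 and 3533 normalised reads in controls and at 3289, 3024 and 3299 with FL-ApoE4 (-0.14 ± 0.05, limma adjusted p = 0.334). Every treated library lay below every control for Tfam, which, like the other genes named here, was picked for its low p. Of the 18 genes, 2 were lower and 2 higher without overlap, where 10.9% and 11.1% of all genes tested were. Ssbp1, the mitochondrial single-strand DNA binding protein, differed by 0.12 ± 0.05 (limma adjusted p = 0.384), Exog, a mitochondrial nuclease, by 0.20 ± 0.07 (limma adjusted p = 0.308) and Rnaseh1, which cleaves RNA in RNA-DNA hybrids, by -0.13 ± 0.07 (limma adjusted p = 0.484).

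Of 23 genes for processing, stability and decay of mitochondrial RNA, 22 were tested, 7 positive and 15 negative (median -0.03), and 0 passed. Pde12, which removes poly(A) tails in mitochondria, was at 3605, 3384 and 3543 in controls and at 3038, 3142 and 3150 with FL-ApoE4 (-0.17 ± 0.05, limma adjusted p = 0.228), without overlap. Elac2, which cuts the 3′ ends of transfer RNAs, differed by -0.12 ± 0.05 (limma adjusted p = 0.365), and Prorp, the protein that cuts their 5′ ends, by -0.12 ± 0.06 (limma adjusted p = 0.436). Ptcd2 differed by 0.14 ± 0.06 (limma adjusted p = 0.358). These genes were picked for their low p. Of the 22 genes, 4 were lower and 3 higher without overlap, where 10.9% and 11.1% of all genes tested were.

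For the ribosome itself, 21 of 22 genes of ribosomal RNA modification and ribosome assembly were tested, 9 positive and 12 negative (median -0.01), with 0 called. Ybey, an endoribonuclease that acts on ribosomal RNA, was at 253, 256 and 247 in controls and at 375, 325 and 306 with FL-ApoE4 (0.41 ± 0.10, limma adjusted p = 0.191). Its treated libraries all lay above the controls. Ybey too was picked for its low p. Of the 21 genes, 3 were lower and 3 higher without overlap, where 10.9% and 11.1% of all genes tested were. Rpusd4, a pseudouridine synthase that acts on mt-Rnr2, differed by 0.18 ± 0.06 (limma adjusted p = 0.262), Gtpbp10, a GTPase of large subunit assembly, by -0.17 ± 0.06 (limma adjusted p = 0.306) and the helicase Dhx30 by -0.10 ± 0.05 (limma adjusted p = 0.424).

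Of 78 genes of mitochondrial ribosomal proteins, 77 were tested; 46 were positive and 31 negative with a median of 0.02, against the median of -0.22 of the 2 ribosomal RNAs. None passed. Mrpl52 had the lowest p, at 0.21 ± 0.10 (limma adjusted p = 0.435). Mrpl44 differed by 0.11 ± 0.06 (limma adjusted p = 0.472), Mrps27 by 0.08 ± 0.05 (limma adjusted p = 0.565) and Mrpl19 by -0.07 ± 0.05 (limma adjusted p = 0.593). Without control replicate 1, limma called 651 of 14079 genes (4.62%). Among them were 0 of the 10 members, 1 ribosomal protein gene, Mrpl52 (0.32, limma adjusted p = 0.0206), and 0 genes of the other lists. In that fit mt-Rnr1 was at -0.20 (limma adjusted p = 0.211) and mt-Rnr2 at -0.17 (limma adjusted p = 0.217).

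The genes whose profile over the 6 libraries lay nearest to that of the ribosomal RNAs were sought among 11662 genes with a mean of at least 50, by the Euclidean distance of centred log2(value + 1) values. The 2 ribosomal RNAs lay 0.0553 apart. Nearest to their mean were Echdc2 at 0.0856, 6330415G19Rik at 0.117 and Atf5, a transcription factor of stress responses, at 0.122. Nearest to mt-Rnr2 alone were Echdc2, 6330415G19Rik and Rab5a, a GTPase of early endosomes, at 0.0954, 0.106 and 0.112. Atf5 was at 3303, 3397 and 2979 in controls and at 2917, 2709 and 2753 with FL-ApoE4 (-0.21 ± 0.07, limma adjusted p = 0.258). No gene lay as near to mt-Rnr2 as mt-Rnr1 did.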

How the data were processed

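The authors deposited a table of normalised signal per gene and library, which is log2-transformed here, and their statistics for every gene (log2 fold change, p-value and adjusted p-value). Per the submitters' processing notes, build GRCm39 was used with DESeq2 1.30.1, HTSeq, HISAT2 2.2.1 and FastQC 0.11.8; their roles and settings are unstated there. Per the labels' protocols, libraries were made with a directional kit. Each value was a whole multiple of its column's smallest value (100% of values, tolerance 0.01), so whole reads were recovered by division.

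Values were tested as log2(value + 1) with limma-trend (limma 3.58.1 in R 4.3.3), on a scale that understates changes of low genes. It was two-sided, over the 14079 of 40202 genes with a mean of at least 10, with group as the only term, Benjamini-Hochberg adjustment and a threshold of 0.05. On the recovered reads, edgeR 4.0.16 called 0 genes and DESeq2 1.42.0 called 367. The fit was also run on simulated libraries, drawn independently from each gene's estimated spread. These hold no library that stands apart as control replicate 1 does, and no result above rests on that run. No pair of libraries was alike within sampling noise (lowest chi-square per gene 4.39). Shares and quotients are sums of recovered reads, with no test. Alternatives covered pseudocount, filter, scaling, test, replicate block, each library left out and the messengers summed.

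Shared windows were to be searched in the nuclear genome; annotated nuclear transcripts of GENCODE M21 (GRCm38) were searched instead. Members and lists were chosen with earlier results of these data known. Genes named were the 10 members, the other mitochondrial genes, up to 4 genes of lowest p in each list and the 3 nearest profiles; the RNAs without poly(A) were added after their values were seen.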

Additional observations from a re-analysis of the deposited data

How the results depend on the processing

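Over 17 alternatives, ATP6 kept its direction (-1.50 to -0.88) with limma, edgeR and DESeq2 adjusted p of 0.0130 to 0.614, and mt-Rnr1 (-0.31 to -0.17, adjusted p 0.180 to 0.670) and mt-Rnr2 (-0.28 to -0.17, 0.185 to 0.676) kept theirs without passing the threshold. ATP8 ranged from -0.70 to -0.37 over 16 and had no value with a mean of at least 50. ND2, ND4, ND5 and CYTB stayed positive. Signs turned under quantile normalisation for ND1 (-0.027), COX1 (-0.0155), ND4L (-0.0555) and ND6 (0.032), for ND4L also with edgeR (-0.0338) and DESeq2 (-0.0384), and for ND6 with equal totals (0.0033). With 1 library left out, ND1 ranged from -0.0065 to 0.0312, ND4L from -0.2214 to 0.2562 and ND6 from -0.0715 to 0.0723. The count of genes called was 1 with no filter, 367 with DESeq2, and 0 to 651 with 1 library left out (651 without control replicate 1, 1 without FL-ApoE4 replicate 2); DESeq2 called 1 member, ATP6. Leaving messengers out of the sum makes it smaller by construction: the difference in messenger share was 0.04285 without ATP6, ATP8 and COX1 and 0.03753 also without ND4, and that in ribosomal reads per 100 messenger reads was then -2.60514; the last set was chosen after seeing the data. The labels give both groups replicate numbers, without saying whether same-numbered libraries belong together. Deviations of same-numbered libraries correlated at 0.13, 0.07 and -0.03, and the highest of all was control replicate 3 with FL-ApoE4 replicate 2 (0.16). Deviations centred within groups of 3 libraries cannot decide whether the libraries were paired. A fit with a replicate block called 0 genes (2177 at an unadjusted p under 0.05, against 1850) and 0 members. For ATP8 the spread between libraries was 0.820 and 1.07 times counting error; for the other 9 members it was 1.66 to 24.3 times, so the spread between libraries exceeded counting error there.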
